A study of Homo sapiens with 6 samples.

Results

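Transcripts of proteasome genes were compared between T98G and U87MG, 2 established lines grown from human glioblastoma. The members were every probe set with 1 listed gene whose symbol starts with PSM, a letter from A to G and a digit. This rule gave 65 probe sets for 41 of the 11963 measured genes, and each gene was represented by its brightest probe set over the 6 arrays. By class there were 6 PSMA, 10 PSMB, 6 PSMC, 12 PSMD, 4 PSME, 1 PSMF and 2 PSMG symbols. PSMC3IP, a recombination factor, and PSME3IP1, a partner protein of the activator PSME3, match the symbol rule without encoding a part of the proteasome. The other 39 encode subunits, activators, an inhibitor or assembly chaperones. PSMA6 and PSME2 were not used here, because their probe sets list several genes. No probe set met the rule for PSMC5, PSMD7 or PSMD13 either.

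Each line had 3 Affymetrix arrays, and the labels name no treatment. Both lines grew in the same serum-containing medium. The labels give T98G as the line that dies by apoptosis under bortezomib, an inhibitor of the proteasome, and under G5, an inhibitor of ubiquitin isopeptidases, and that partly resists necrosis under G5. U87MG is given as the line that withstands that apoptosis but dies by necrosis under G5. Each line comes from 1 tumour, so the comparison is of these lines and not of a single altered trait. Values are log2 levels per probe set as deposited, errors are SDs over 3 arrays, and differences are U87MG minus T98G. Probe sets differ in brightness per transcript, so the level of 1 gene cannot be read against that of another. Whether the 3 arrays of a line came from separate cultures is not stated in the labels, so the spread behind each p-value may be technical.

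The proteasome is the protease that degrades ubiquitin-tagged proteins. Its barrel, the 20S core, has outer rings of alpha subunits (PSMA) and inner rings of beta subunits (PSMB), 3 of which cut peptide bonds. A cap, the 19S regulator, binds ubiquitin, unfolds the substrate with its ATPases (PSMC) and feeds it to the core with help of non-ATPase subunits (PSMD). Interferon-gamma induces the alternative catalytic subunits PSMB8, PSMB9 and PSMB10, which replace the standard ones in new cores to form the immunoproteasome. That form is known for producing peptides for presentation on HLA class I.

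Among the cell type markers, the mesenchymal and glial filament gene VIM was at 14.59 ± 0.05 in T98G and 14.85 ± 0.05 in U87MG. The astrocyte gene GFAP was at 6.42 ± 0.04 and 6.52 ± 0.04 and S100B at 4.13 ± 0.16 and 4.23 ± 0.08, the latter near the highest value of control probe sets for a bacterial gene, 4.03. Of the 7 glial and glioma markers, NES, a progenitor filament gene, was called higher in U87MG (log2 2.55), and the summed level of the list was 47.5 to 47.93 in T98G and 50.86 to 51.23 in U87MG. Immune cells express PSMB8, PSMB9 and PSMB10 strongly, so immune markers were read as well. Of 8 immune markers, 6 were measured and 0 were called either way. Their summed log2 level was 36.96 to 37.64 in T98G and 36.79 to 38.18 in U87MG, with the leukocyte gene PTPRC at 4.33 ± 0.12 and 4.55 ± 0.36. In other lists, the neuronal gene SNAP25 (log2 1.60) and the fibroblast gene COL1A1 (log2 3.90) were called higher in U87MG, while COL1A2, also a fibroblast marker, was lower (-0.64, adjusted p = 0.0128). The part of NES and these markers in the proteasome results was not tested. The lowest value of a member's representative probe set on any array was 8.63.

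Set against all genes, the proteasome genes as a family did not stand out in number of differences, but a few named members differed by a factor near or above 2. A gene was called when its limma p, adjusted by Benjamini-Hochberg over all 11963 genes, was under 0.05 and its difference was at least 2-fold. PSMD5 was the only member called higher in U87MG (1 of 41, against 6.56% of all genes). PSMB9 and PSMF1 were called lower (2 of 41, against 7.01% of all genes). Another 15 members had an adjusted p under 0.05 without reaching 2-fold. Counting these, 8 members were higher (19.7% of all genes were) and 10 were lower (21.7% of all genes were), which made 43.9% of the members against 41.3% of all genes. These shares at an adjusted p under 0.05 lie near those of all genes, many of which are dimmer than the members. All 41 members passed a filter on dim probe sets, and among the 7210 genes it kept 59.5% had an adjusted p under 0.05, against 19 of the 41 members there. Of those 7210 genes, 655 were called higher and 697 lower, against 1 and 2 of the 41 members. Against these brighter genes the members had the lower shares. The median difference was -0.03 over the members and -0.01 over all genes, and the median absolute difference was 0.26 over each. The arrays of the lines did not overlap for 25 of the 41 members, against 52.0% of all genes.

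**Figure D1:**
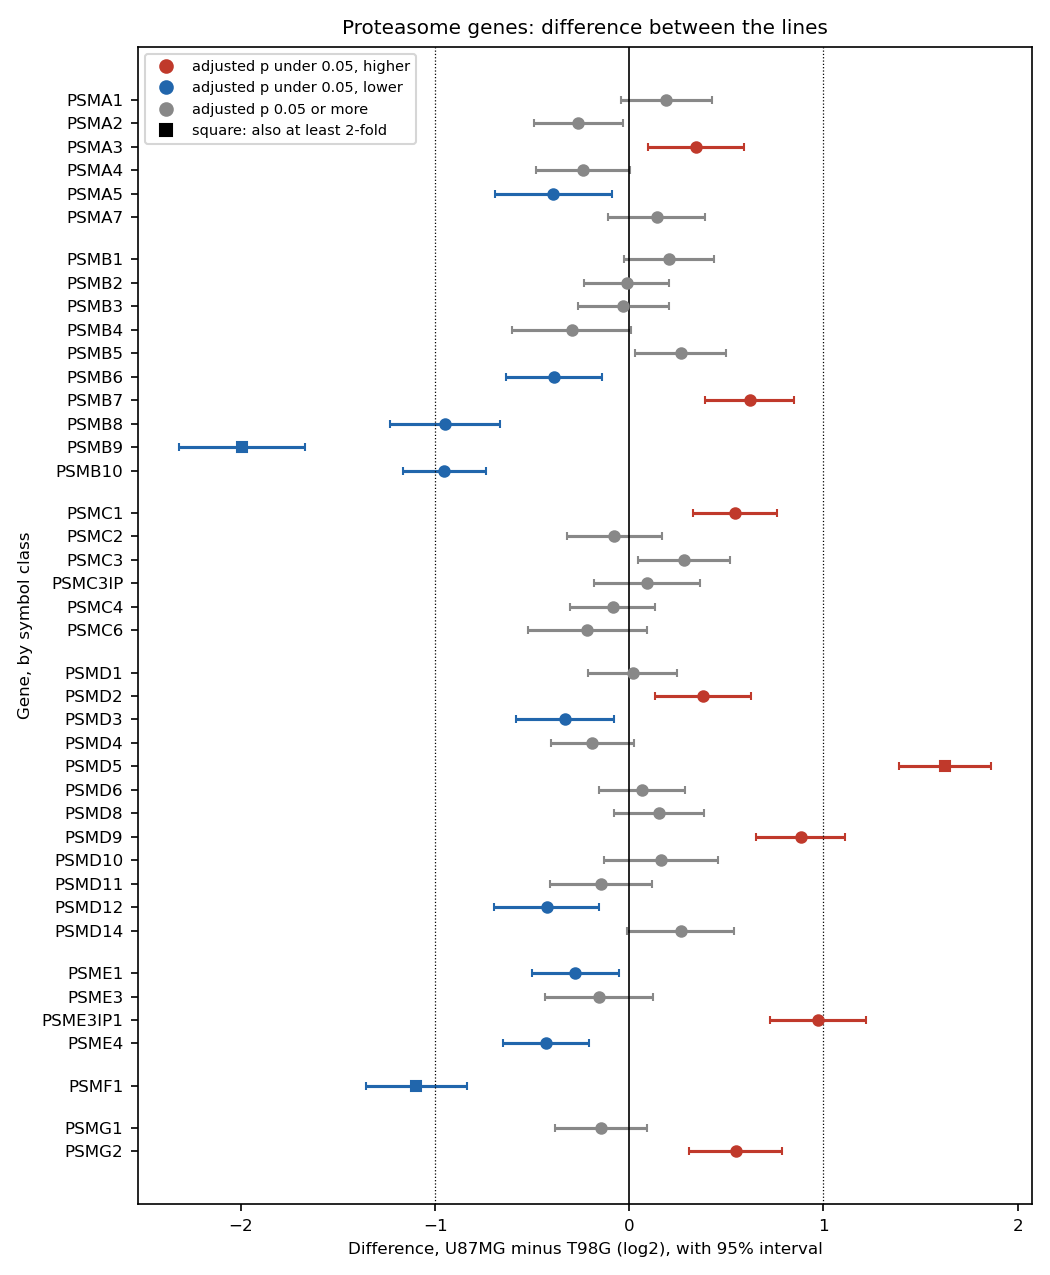
Difference between the lines (U87MG minus T98G, log2 axis, with 95% interval, n = 3 arrays per line) for the 41 proteasome genes by symbol class. Most members lie between the dotted lines at 2-fold, while PSMB9 (-1.99), PSMF1 (-1.10) and PSMD5 (1.63) lie outside them.

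The inducible catalytic subunits were lower in U87MG, with 0 of 3 higher, 3 of 3 lower at an adjusted p under 0.05 (21.7% of all genes were), and 1 also past 2-fold (7.01% of all genes were). PSMB9, the interferon-inducible counterpart of PSMB6, read 11.01, 10.64 and 10.98 on the T98G arrays and 8.99, 8.63 and 9.02 on the U87MG arrays. Every U87MG array was below every T98G array by more than the spread within either line. The means, 10.88 ± 0.21 and 8.88 ± 0.21, differed by log2 -1.99 (SE 0.14, 95% interval -2.32 to -1.67, limma adjusted p = 3.70e-06), a 3.98-fold lower level. PSMB10, the counterpart of PSMB7, read 10.19, 10.12 and 10.24 in T98G and 9.25, 9.16 and 9.28 in U87MG. Its arrays did not overlap either, and the difference of -0.95 (SE 0.10, adjusted p = 3.52e-05) was 1.93-fold. PSMB8, the counterpart of PSMB5, read 11.22, 10.95 and 11.14 in T98G and 10.28, 9.94 and 10.23 in U87MG. Its difference of -0.95 (SE 0.13, adjusted p = 2.12e-04) was 1.93-fold, just short of the 2-fold minimum, and without T98G replicate 2 (-1.03) or U87MG replicate 1 (-1.015) PSMB8 was called.

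The standard catalytic subunits did not share 1 direction. PSMB6, which cuts after acidic residues, read 12.82, 12.75 and 12.89 in T98G and 12.59, 12.31 and 12.40 in U87MG. All U87MG arrays were below all T98G arrays, by log2 -0.39 on average (SE 0.11, adjusted p = 0.0173). PSMB7, which cuts after basic residues, read 12.71, 12.69 and 12.76 in T98G and 13.44, 13.36 and 13.22 in U87MG. It was 1.54-fold higher in U87MG (log2 0.62, SE 0.10, adjusted p = 8.27e-04), with no overlap between the lines. PSMB5, the chymotrypsin-like subunit and main binding site of bortezomib, read 11.64, 11.76 and 11.61 in T98G and 11.87, 11.88 and 12.06 in U87MG. Its lowest U87MG array lay above its highest T98G array, but the difference of 0.26 (95% interval 0.03 to 0.50) had an adjusted p of 0.0691 by limma and was not called.

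**Figure D2:**
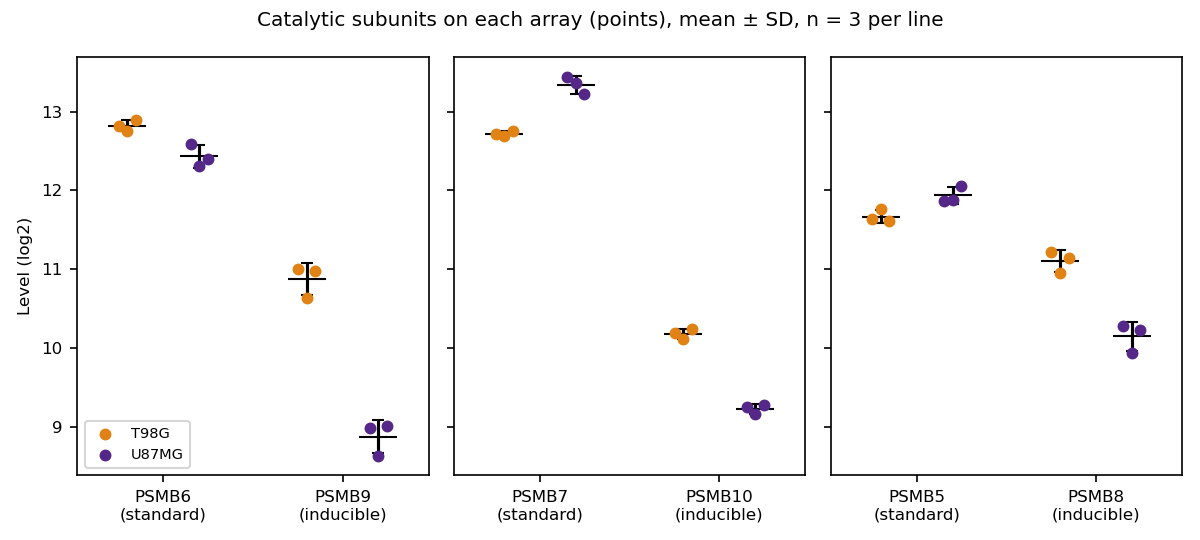
Log2 level of each standard catalytic subunit and its inducible counterpart on every array (points), with the mean and SD of each line (n = 3). The U87MG points lie below the T98G points for PSMB8, PSMB9, PSMB10 and PSMB6 and above them for PSMB5 and PSMB7; heights of different genes are not comparable.

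Subtracting the standard from the inducible subunit on each array gives a contrast. Its change between lines is free of a constant offset in brightness of either probe set. It is not free of compression of differences, which can vary by probe set. For PSMB9 minus PSMB6 this contrast was -1.95 ± 0.16 in T98G and -3.55 ± 0.16 in U87MG, lower by a factor of 3.05. For PSMB10 minus PSMB7 it was -2.54 ± 0.02 and -4.11 ± 0.15, lower by a factor of 2.97. PSMB8 minus PSMB5 had -0.57 ± 0.21 and -1.79 ± 0.18, lower by a factor of 2.32. In all 3 pairs the 3 U87MG arrays lay below the 3 T98G arrays. These contrasts are descriptions and were not tested.

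The sequences just before the start sites of these 3 genes are shown because the genes were lower together and because interferon acts on them through short DNA motifs. They are reference sequences from RefSeq (GRCh38.p14), not reads of these lines, and hold the 250 bases before each start, 5′ to 3′ on the gene's strand. Capitals mark matches to the core of the interferon-stimulated response element (GAAANNGAAA), of the gamma-activated site (TTCNNNGAA) or of the CCAAT box, searched on both strands. PSMB9 lies on the plus strand at chr6:32853942-32854191, PSMB10 on the minus strand at chr16:67936851-67937100, and PSMB8 on the minus strand with windows for 2 starts, chr6:32844680-32844929 (start a) and chr6:32844048-32844297 (start b).
PSMB9: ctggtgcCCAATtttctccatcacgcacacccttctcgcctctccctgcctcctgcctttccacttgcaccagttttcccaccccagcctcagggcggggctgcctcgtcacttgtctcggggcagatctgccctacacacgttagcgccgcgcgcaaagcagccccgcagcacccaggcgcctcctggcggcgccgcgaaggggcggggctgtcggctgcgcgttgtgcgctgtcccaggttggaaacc
PSMB10: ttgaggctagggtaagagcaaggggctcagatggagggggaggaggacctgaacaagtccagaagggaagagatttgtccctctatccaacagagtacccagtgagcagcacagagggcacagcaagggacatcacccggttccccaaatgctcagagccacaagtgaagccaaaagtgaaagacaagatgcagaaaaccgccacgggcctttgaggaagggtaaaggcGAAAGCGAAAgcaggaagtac
PSMB8 start a: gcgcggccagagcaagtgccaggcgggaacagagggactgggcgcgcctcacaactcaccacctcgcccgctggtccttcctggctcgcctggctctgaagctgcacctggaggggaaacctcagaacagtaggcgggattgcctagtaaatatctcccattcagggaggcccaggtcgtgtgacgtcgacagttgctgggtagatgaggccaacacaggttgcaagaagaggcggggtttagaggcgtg
PSMB8 start b: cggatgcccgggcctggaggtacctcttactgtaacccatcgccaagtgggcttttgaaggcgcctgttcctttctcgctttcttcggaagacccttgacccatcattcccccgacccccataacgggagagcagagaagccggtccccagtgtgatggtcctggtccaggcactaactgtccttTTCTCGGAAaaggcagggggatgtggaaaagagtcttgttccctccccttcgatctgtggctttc

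PSMB10 had the interferon element core at bases 21 to 12 before its start, a motif found in 3.02% of all 35116 windows of this length. PSMB8 had the gamma-activated core at bases 65 to 57 before start b (6.57% of all windows) and no match before start a. PSMB9 had the antioxidant core as well, and its window held a CCAAT box at bases 243 to 239 before the start (32.0% of all windows) and neither interferon motif. Of the 41 members, 36 had a window in the table. The interferon element core was also present before PSMA4 and PSMB4, and the gamma-activated core before PSMA2, PSMB5, PSMC4, PSMD3 and PSME3. Another motif, the antioxidant response core (TGACNNNGC) bound by NFE2L1 and NFE2L2, was searched but not capitalised. It stood in 11 of 45 member windows (10.9% of all windows), the CCAAT box in 20, the gamma-activated core in 6 and the interferon element core in 3. A match is a run of letters and no shown binding site.

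The structural subunits of the 20S core differed little and in both directions. Of 6 alpha subunits, 1 was higher and 1 lower at an adjusted p under 0.05, or 33.3% against 41.3% of all genes, and the median difference was -0.05. PSMA3 read 12.35, 12.31 and 12.37 in T98G and 12.81, 12.75 and 12.50 in U87MG, a difference of 0.34 (SE 0.11, adjusted p = 0.0313). PSMA5 had the largest difference of the class and read 12.21, 12.17 and 12.19 in T98G against 12.01, 11.87 and 11.51 in U87MG (-0.39, SE 0.13, adjusted p = 0.0411). Neither gene overlapped between the lines, and the 3 T98G arrays were closer together than the 3 U87MG arrays. PSMA1 (0.19), PSMA7 (0.14), PSMA2 (-0.26) and PSMA4 (-0.24) had adjusted p-values of 0.0678 to 0.374. The non-catalytic beta subunits PSMB1 (0.21), PSMB2 (-0.01), PSMB3 (-0.03) and PSMB4 (-0.30) did not pass the test. For PSMB2 the 95% interval ran from -0.23 to 0.21 and for PSMB3 from -0.27 to 0.20.

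The 19S cap also differed modestly. Of its 6 ATPases, 5 were measured, without PSMC5. PSMC1 was higher in U87MG and the other measured ones did not pass. PSMC1 read 12, 11.97 and 11.95 in T98G, against 12.58, 12.55 and 12.43 in U87MG, and the arrays did not overlap (1.46-fold, log2 0.55, SE 0.10, adjusted p = 0.00127). PSMC3 had 0.28 (adjusted p = 0.0568), PSMC2 -0.08, PSMC4 -0.09 and PSMC6 -0.22. Of the 9 member PSMD genes that encode cap subunits, 1 was higher and 2 were lower at an adjusted p under 0.05, or 33.3% against 41.3% of all genes. The cap subunits PSMD7 and PSMD13 are not among these 9. PSMD2, the scaffold that docks ubiquitin shuttle proteins, was higher by 0.38 (SE 0.11, adjusted p = 0.0204; 12.37 ± 0.06 against 12.75 ± 0.16). PSMD3, a subunit of the lid, was lower by -0.33 (adjusted p = 0.0398; 11.35 ± 0.10 against 11.02 ± 0.14). PSMD12, another lid subunit, was lower by -0.43 on its brightest probe set (adjusted p = 0.0176), a result that its other probe set contradicted.

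Other cap subunits did not pass the test. PSMD14, the deubiquitinase that removes ubiquitin chains before degradation, had 0.26 (95% interval -0.01 to 0.54). PSMD4, a ubiquitin receptor of the cap, had -0.19 (-0.41 to 0.02). PSMD1, PSMD6 and PSMD8 had 0.02, 0.07 and 0.15, and PSMD11 had -0.15 on its brightest probe set. ADRM1, the other main ubiquitin receptor, was higher in U87MG by 0.46 (adjusted p = 0.00823), and SEM1, a small lid subunit, was lower by -0.39 (adjusted p = 0.00865).

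The median absolute difference was 0.55 over the 5 assembly chaperones among the members and 0.20 over the 14 cap subunits among them. These groups were not tested against each other. PSMD5, a chaperone that binds the ATPase ring while the cap is built, read 9.03, 8.96 and 9.18 in T98G and 10.60, 10.78 and 10.68 in U87MG. The lines were far apart, at 9.06 ± 0.11 and 10.68 ± 0.09, and the level was 3.09-fold higher in U87MG (log2 1.63, SE 0.11, 95% interval 1.39 to 1.86, adjusted p = 1.62e-06). The second PSMD5 probe set read 4.69 to 4.96 on all arrays, close to the control level of 4.03, and had a difference of 0.15. Averaging both probe sets gave 0.89 and ended the call. PSMD9, a second chaperone of the ATPase ring, read 10.88, 10.93 and 10.87 in T98G and 11.90, 11.77 and 11.66 in U87MG. It was 1.84-fold higher (log2 0.88, SE 0.10, adjusted p = 8.67e-05), and its dimmer probe set gave 1.15, or 2.21-fold. PAAF1, another chaperone of the same step, went the other way. It read 10.52, 10.39 and 10.46 in T98G and 9.41, 9.31 and 9.35 in U87MG and was called 2.14-fold lower (log2 -1.10, SE 0.10, adjusted p = 1.34e-05). PSMD10, also one of them and known as gankyrin, had 0.16 (95% interval -0.13 to 0.46) and was not called.

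Chaperones of the 20S core also differed in direction. PSMG2, which pairs with PSMG1 to start the alpha ring, read 11.83, 11.84 and 11.81 in T98G and 12.51, 12.41 and 12.22 in U87MG (log2 0.55, SE 0.11, adjusted p = 0.00234). Its partner PSMG1 had -0.15 (95% interval -0.38 to 0.09). POMP, which completes the core, was lower by -0.43 in U87MG (13.01 ± 0.01 against 12.58 ± 0.13, adjusted p = 0.00751). The PSMG2 arrays were separated between the lines, while those of PSMG1 overlapped.

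PSMF1 was the other called member. It encodes PI31, a protein first described as an inhibitor of the 20S core. The gene read 11.07, 11.17 and 10.90 in T98G and 9.93, 9.83 and 10.09 in U87MG. The lines did not overlap, and the level was 2.14-fold lower in U87MG (log2 -1.10, SE 0.12, 95% interval -1.36 to -0.84, adjusted p = 4.80e-05). Its second probe set gave -0.99.

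The activators that open the core without ubiquitin differed less. PSME1, a subunit of the interferon-inducible activator, read 10.75, 10.73 and 10.87 in T98G and 10.51, 10.42 and 10.58 in U87MG, lower by -0.28 (SE 0.10, adjusted p = 0.0485). PSME4, a large nuclear activator, was lower by -0.43 on its brightest probe set (adjusted p = 0.00585; 10.54 ± 0.08 against 10.12 ± 0.05). PSME3, which forms a nuclear activator on its own, had -0.16 (95% interval -0.44 to 0.12). Of the 2 symbols outside the proteasome, PSME3IP1 read 9.15, 9.07 and 9.30 in T98G and 10.04, 10.13 and 10.26 in U87MG. It was 1.96-fold higher (log2 0.97, SE 0.11, adjusted p = 7.56e-05), just under the 2-fold minimum, and was called without T98G replicate 3 (1.04) or U87MG replicate 1 (1.02). PSMC3IP had 0.09 (adjusted p = 0.615).

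For 17 members there were several probe sets, and these gave 1 direction in 9 genes and both directions in 8. In PSMD12 and PSME4 the probe sets passed the test in opposite directions, with p adjusted over all probe sets. The brightest PSMD12 probe set had -0.43 (adjusted p = 0.0212), while the other read 10.49, 10.74 and 10.55 in T98G and 11.39, 11.37 and 11.19 in U87MG, a difference of 0.72 (adjusted p = 8.27e-04). Of the 3 PSME4 probe sets, the brightest had -0.43 and the others had 0.81 (adjusted p = 8.01e-04) and -0.48 (adjusted p = 0.0880). The largest gap within the lid was that of PSMD11. Its brightest probe set had -0.15, and its dimmer one read 8.61, 9.10 and 9.29 in T98G and 10.05, 10.38 and 9.95 in U87MG, 2.18-fold higher (adjusted p = 0.00119). PSMC2 had -0.08 and 0.42, PSMA2 -0.26 and 0.34, and PSME3 -0.16 to 0.45 over 4 probe sets. For these genes no single direction holds for the gene as a whole, and the cause of the disagreement was not tested.

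**Figure D3:**
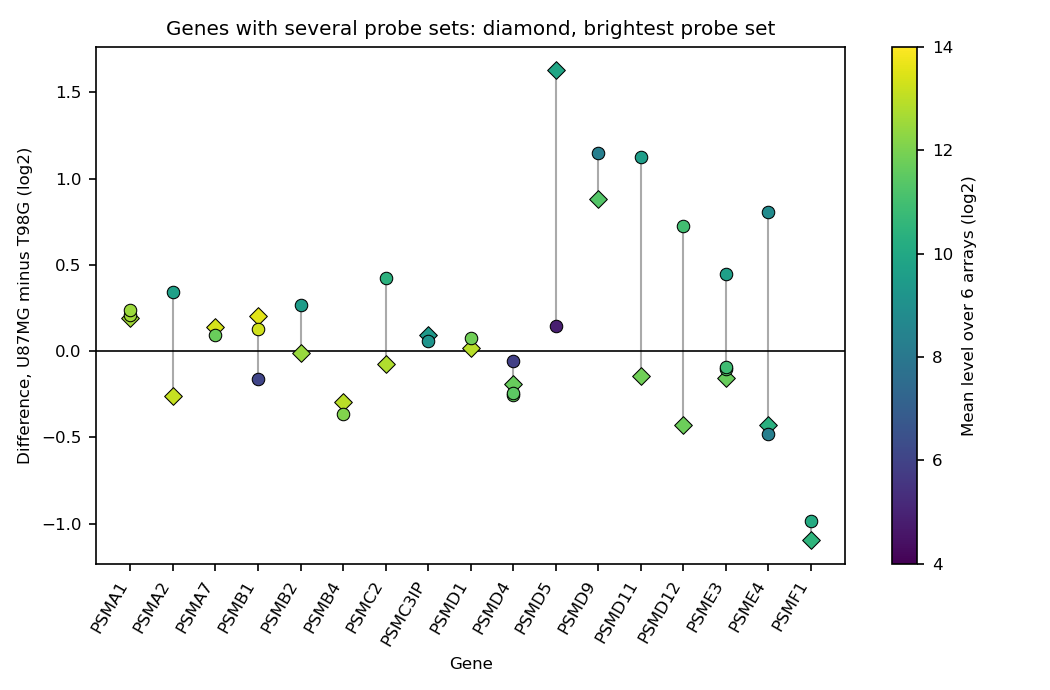
Difference between the lines (log2) on each probe set of the 17 members with several, coloured by the probe set's mean level; diamonds mark the brightest. PSMF1 and PSMD9 show 1 direction on both probe sets, while PSMD11, PSMD12 and PSME4 have probe sets on both sides of 0.

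PSMB8 and PSMB9 lie in the HLA region of chromosome 6, interleaved with the genes of the peptide transporter. In the RefSeq gene order the measured sequence there is TAP2, PSMB8, TAP1, PSMB9. All 4, which include the members PSMB8 and PSMB9 described above, were lower in U87MG at an adjusted p under 0.05 (21.7% of all genes were). The differences were -0.83 for TAP2, -0.95 for PSMB8, -0.34 for TAP1 and -1.99 for PSMB9. The 3 probe sets of TAP2 ran from -1.42 to -0.16. TAP1, which shares the stretch between its start and that of PSMB9, read 9.80, 9.77 and 10.03 in T98G and 9.53, 9.53 and 9.52 in U87MG. The lower levels did not extend across the region. HLA-DMB and HLA-DMA, class II genes 2 and 3 measured places beyond PSMB9, were called higher in U87MG, 2.35-fold and 5.60-fold, and HLA-DOB on the other side had -0.37 (adjusted p = 0.0798).

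PSMF1 lies on chromosome 20 among other genes that were lower in U87MG. Of the 10 nearest measured genes, 5 were lower at an adjusted p under 0.05, against 21.7% of all genes. These were TRIB3, RBCK1, CSNK2A1, FKBP1A and NSFL1C, at -1.41, -1.42, -1.63, -0.78 and -1.06, and they read 8.33 or more on every array. None of the 10 was higher at that limit, and the other 5 were TCF15, ANGPT4, TMEM74B, RAD21L1 and SNPH. SNPH read 7.64 to 8.25. The rest of these read under 7.63, the limit of the filter on dim probe sets, on every array. Differences of dim transcripts can be compressed, so the lack of a difference there says little. NSFL1C encodes a cofactor of the VCP segregase, which extracts ubiquitin-tagged proteins. Around PSMD5 on chromosome 9, its neighbour FBXW2 was higher at 1.10 and TRAF1, on the other side, at 0.43, while MEGF9 and C5, each 2 places away, had -0.28 and -0.25 and did not pass. Farther out, RAB14 (0.33) and GSN (0.64) were higher and TLR4 (-1.03) was lower. Neighbours of PSMF1 and PSMD5 were looked up after the values of these genes were seen. Gene copy number was not measured, and its part in these differences was not tested.

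**Figure D4:**
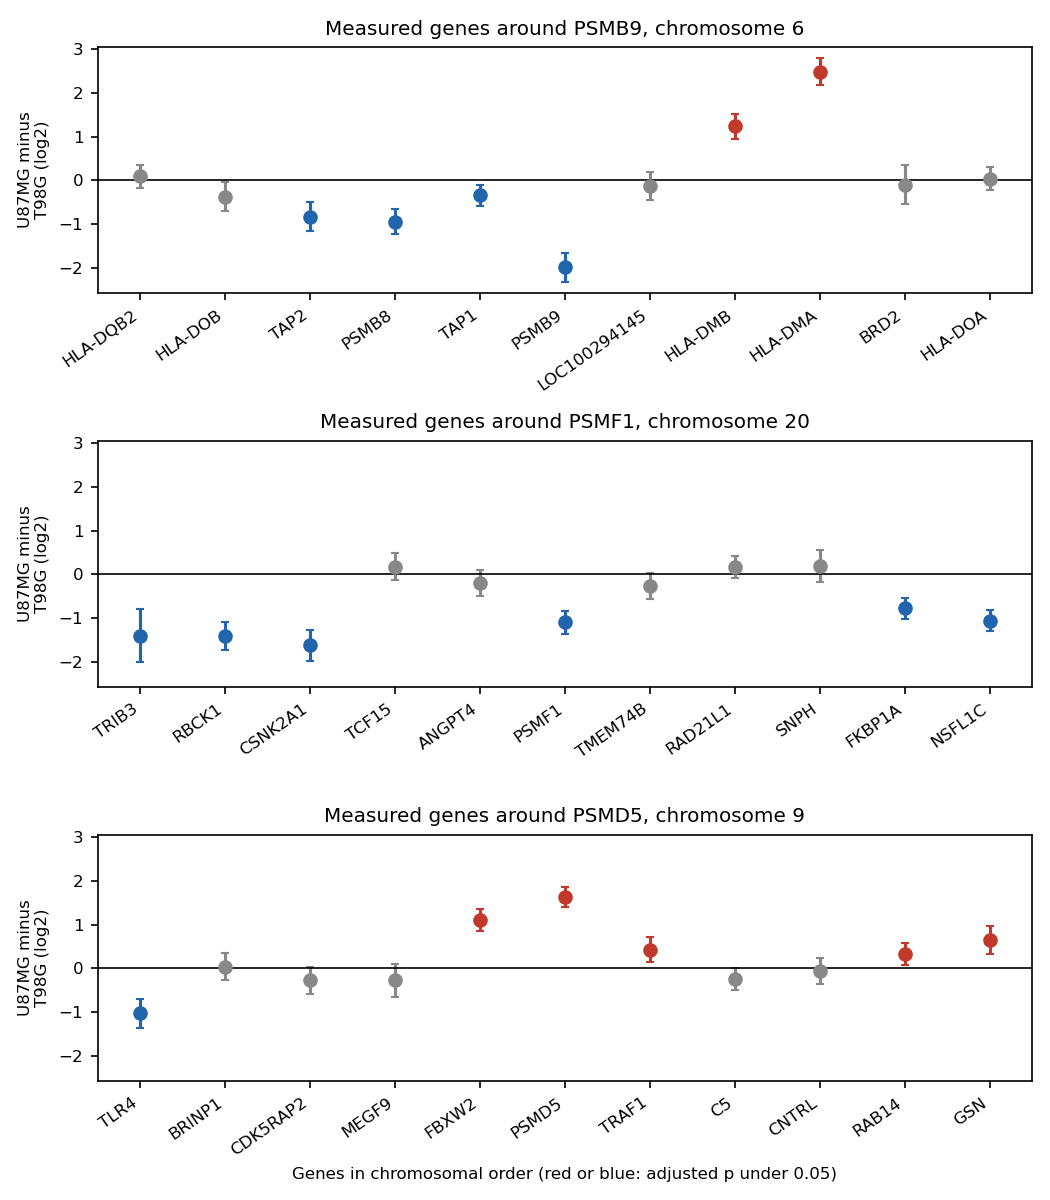
Difference between the lines (log2, with 95% interval) for PSMB9, PSMF1 and PSMD5 and the 5 nearest measured genes on each side, in chromosomal order. TAP2 to PSMB9 lie below 0 with HLA-DMB and HLA-DMA above it, and 5 neighbours of PSMF1 lie near or beyond -0.78.

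Of 12 measured genes of interferon signalling, 2 were higher and 3 lower at an adjusted p under 0.05, or 41.7% against 41.3% of all genes, so the list as a whole lay at the background. Of these, 2 were called lower and 0 called higher. IRF1, a transcription factor known to drive PSMB9 and TAP1, read 10.55, 10.12 and 10.45 in T98G and 8.80, 8.55 and 8.64 in U87MG. The lines were well apart, and IRF1 was 3.28-fold lower in U87MG (log2 -1.71, SE 0.13, adjusted p = 5.81e-06). IFNGR2 and IFNGR1, the chains of the interferon-gamma receptor, were lower at -1.01 and -0.87. The kinase genes JAK2 and TYK2 were higher at 0.94 and 0.51, while JAK1 (-0.08), IRF2 (-0.16) and IRF9 (0.06) did not pass.

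Most of the differences among genes of class I peptide supply and loading were lower levels in U87MG. Of the 15 measured, 1 was higher and 8 were lower at an adjusted p under 0.05, against 19.7% and 21.7% of all genes, with a median difference of -0.45 (-0.01 over all genes). TAPBP, which bridges the peptide transporter and class I, was lower at -0.88, and TAPBPL, its homologue that edits peptides, at -1.05. None of the 5 class I heavy chain genes on the list passed the limma test, their differences running from -0.11 to 0.14. Probe sets of ERAP1, a peptide trimming enzyme on the list, ran from -1.30 to 1.49. The heavy chain genes have close relatives that 1 probe set can detect.

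Factors tied to expression of the standard proteasome genes moved both ways. NFE2L1, the transcription factor that raises proteasome genes when the proteasome is inhibited, was higher by 0.33 in U87MG (11.06 ± 0.14 against 11.39 ± 0.05, adjusted p = 0.0338). NFE2L2, or NRF2, was 3.49-fold lower (12.32 ± 0.14 against 10.51 ± 0.52), with U87MG arrays at 10.96, 10.63 and 9.95. MAFF, a partner of both factors, was 3.13-fold higher, and NFYA, a subunit of the factor that binds CCAAT boxes, was 2.30-fold lower. Of its partner subunits, NFYC was higher by 0.41 (adjusted p = 0.00766) and NFYB had 0.23 (adjusted p = 0.0911). STAT3 was 2.04-fold lower. Of the 14 genes on this list, 11 were measured, and of these 3 were higher and 3 lower at an adjusted p under 0.05. That made 54.5%, against 41.3% of all genes and 59.5% of the genes kept by the filter on dim probe sets.

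Assembly factors and ubiquitin handling next to the proteasome showed a similar mix. Of 10 assembly and associated factors outside the symbol rule, 3 were higher and 5 lower at an adjusted p under 0.05. That made 80%, against 41.3% of all genes and 59.5% of the genes kept by the filter on dim probe sets. The 8 include the chaperones POMP and PAAF1 and the cap subunits ADRM1 and SEM1, which were given above. UCHL5, a deubiquitinase that docks on the cap through ADRM1, was lower by -0.83, while USP14, the deubiquitinase on PSMD2, was higher by 0.38. UBE3C, a ligase that extends chains at the cap, was higher by 0.73, and TXNL1, a redox protein of the cap, was lower by -0.52. Of 18 listed ubiquitin, shuttle and segregase genes, 12 were measured, and of these 3 were higher and 3 lower at an adjusted p under 0.05. That made 50%, against 41.3% of all genes and 59.5% of those kept by that filter, which FAF1 and UBQLN4 did not pass. RAD23B, a shuttle factor, was higher by 0.70 on the probe set used, while its 3 probe sets ranged from -0.49 to 0.70. VCP was higher by 0.37, and its cofactors NSFL1C and FAF2 were lower, with differences of -1.06 and -0.92. Another cofactor, UBXN1, was higher by 0.41 (adjusted p = 0.0150), with its 2 probe sets at -0.18 and 0.41, while NPLOC4 (0.11) and UFD1 (-0.02) did not pass. UBB, a ubiquitin precursor gene, had -0.07 (adjusted p = 0.617).

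**Figure D5:**
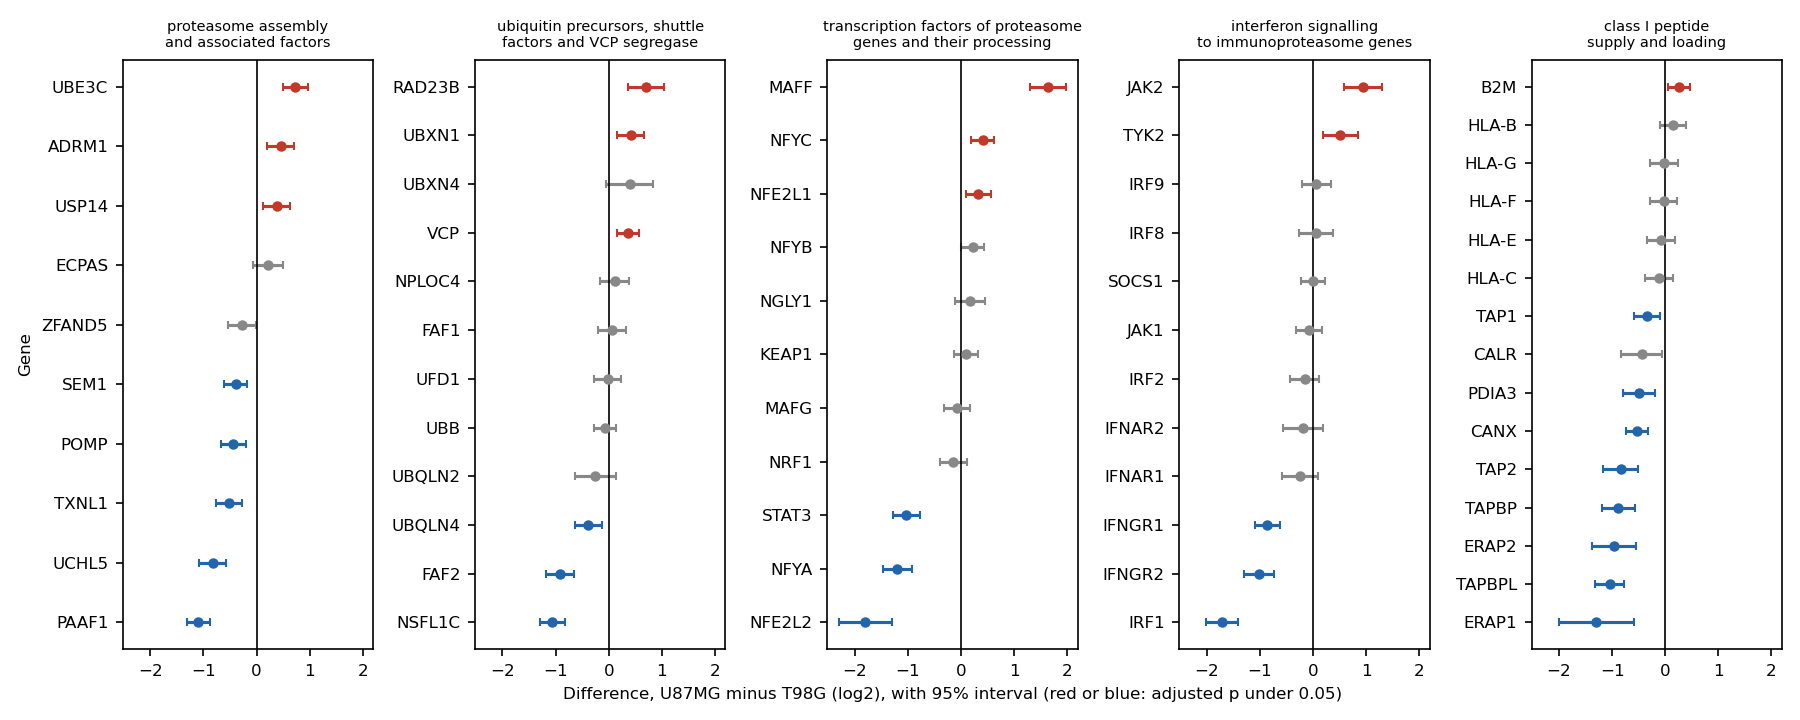
Difference between the lines (log2, with 95% interval, n = 3 arrays per line) for genes of 5 lists around the proteasome that are not members; red and blue mark an adjusted p under 0.05. IRF1, IFNGR1 and IFNGR2 and most peptide loading genes lie to the left of 0, while the class I heavy chains lie around it.

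U87MG replicate 3 read lower than the other U87MG arrays for 28 of the 41 members (68.3%), against 42.0% of all genes. T98G replicate 2 was the lowest T98G array for 24 members (58.5%), against 38.7% of all genes. Without U87MG replicate 3 the number of members with an adjusted p under 0.05 was 21 in place of 18, while the share of all genes was 43.1% in place of 41.3%. Without T98G replicate 1 it was 11 members and 34.5% of all genes. It was 12 members without T98G replicate 2 (35.5% of all genes) or without U87MG replicate 2 (36.6%). The part of array quality in the small differences was not tested. PSMB9, PSMF1 and PSMD5 were called whichever single array was left out.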

How the data were processed

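Biotin-labelled total RNA of each line was measured on Affymetrix arrays, as the labels' protocols describe. Each probe set has 1 deposited log2 value per array. RMA and limma are named, without a version, in the submitters' processing notes. RMA equalises intensity distributions between arrays, so a difference in total RNA would be hidden and differences of dim transcripts compressed. The number of arrays limits the precision (median residual SD 0.146, log2).

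Gene names came from the annotation of the array platform, with symbols updated through RefSeq (GRCh38.p14). Genes were compared with limma 3.58.1 in R 4.3.3 (lmFit, eBayes, two-sided, 4 residual degrees of freedom), 1 probe set per gene, and p-values were adjusted by Benjamini-Hochberg over 11963 genes. Every member was named. Values on each array were given for called members, catalytic subunits and the largest difference of each class, and for some others chosen after their values were seen. Members and lists were chosen with earlier results of these data known. The steps were tested on simulated data for U87MG against T98G over 11963 genes, where 97 of 100 shifts of log2 1.5 and 100 of 100 shifts of log2 3 were recovered with 0 false calls. In these data only the shifted genes differed and the noise was independent between genes and arrays. The simulation therefore does not cover smaller differences or effects shared by an array. Alternatives changed the probe set rule, filters, normalization, variance model, thresholds, the replicate block and the arrays used.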

Additional observations from a re-analysis of the deposited data

How the results depend on the processing

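PSMB9 was called lower in every alternative run, and PSMB8 and PSMB10 were lower in every one that measured them. PSMF1 was called lower wherever it was measured, but had no value without multiply matching probe sets (identifiers ending in _x_at, _s_at or _a_at). PSMD5 was called higher except when all probe sets of a gene were averaged (0.89), where PSMD9 was called (1.015). Averaging moved the members' median to 0.067 and turned the sign of PSMA2 (0.039), PSMB2 (0.13), PSMC2 (0.17), PSMD11 (0.49), PSMD12 (0.15) and PSME3 (0.024). Without multiply matching probe sets, 2 members were higher (PSMD5 and PSMD11) and 1 was lower, and the sign turned for PSMA2 (0.34), PSMB1 (-0.16), PSMC2 (0.42) and PSMD11 (1.13). Centring turned PSMB2 (0.0070), and repeated quantile normalization turned PSMB2 (0.027) and PSMB3 (0.025). At 1.5-fold, 4 members were higher and 4 lower, and limma's treat against 1.2-fold gave 6 and 4. Holm adjustment left 4 members under 0.05. Leaving out 1 array gave 1 to 2 members higher, 2 to 3 lower and 11 to 21 with an adjusted p under 0.05, the lowest without T98G replicate 1, where the share of all genes also fell, from 41.3% to 34.5%. It also turned differences near 0, with ranges of -0.060 to 0.013 for PSMB2, -0.075 to 0.046 for PSMB3, -0.12 to 0.0035 for PSMC2, -0.021 to 0.18 for PSMC3IP and -0.031 to 0.066 for PSMD1. The cause was not tested. Dropping PSMC3IP and PSME3IP1, an alternative added after seeing the data, left 17 members under 0.05.

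Among the 7210 genes kept by a filter on dim probe sets, 59.5% had an adjusted p under 0.05, against 19 of the 41 members, all of which it kept. The replicate block changed no call of a member and gave 16 members with an adjusted p under 0.05 in place of 18. Deviations of same-numbered arrays correlated at 0.154, 0.068 and 0.045 across genes. Those of differently numbered arrays ran from -0.12 to 0.056, the highest for U87MG replicate 3 and T98G replicate 2. These values do not settle whether the numbers pair the arrays, and the main fit did not use them.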

Other observations

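Within each line, replicate 2 had the lowest values of PSMB8, PSMB9, PSMB10 and IRF1, a pattern noticed after the values were seen and not tested. For PSMB9 replicate 2 read 10.64 in T98G and 8.63 in U87MG, and for IRF1 10.12 and 8.55. The gaps to the next array were larger for PSMB9 and IRF1 in T98G than for PSMB10, which read 10.12 to 10.24 there.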
